A study of Mus musculus with 26 samples.

Results

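The genes described here are 10 genes of extracellular matrix proteoglycans and glycoproteins in mouse liver. They encode the small leucine-rich proteoglycans lumican (Lum), decorin (Dcn), biglycan (Bgn) and osteoglycin (Ogn), the large proteoglycan versican (Vcan), the fibre glycoproteins fibronectin (Fn1) and fibrillin (Fbn1), and the matricellular glycoproteins thrombospondin 1 and 2 (Thbs1, Thbs2) and periostin (Postn). They were chosen by name, as the entries of the estimated count table whose Ensembl ID maps to these symbols. The choice was made with earlier results of these data known. All 10 were found among 55642 gene IDs, and all 10 were among the 17104 genes left by a filter on low counts.

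RNA sequencing was done on liver RNA from 26 samples in 4 groups. The first group was wildtype on control chow (WT chow, n = 5) and the second wildtype on CDAHFD (n = 6), a feed that is choline-deficient, defined in its L-amino acids and high in fat. Mtarc1 heterozygous knockout mice (n = 7) and Mtarc1 homozygous knockout mice (n = 8) received CDAHFD as well, in each case for 2 weeks before RNA extraction. Mtarc1 encodes an enzyme of the outer mitochondrial membrane. The sources used here give no age, sex or strain, and do not say how the knockout was made. Since no group holds knockout mice on chow, genotype differences that predate the feeding and changed responses to it cannot be told apart. Samples carry numbers in the labels, but nothing states that each is its own animal, and every p-value therefore measures only how far these samples spread.

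Proteoglycans are core proteins that carry long sulfated sugar chains. The small leucine-rich proteoglycans sit on collagen fibrils and control how they assemble, and decorin and biglycan also bind transforming growth factor beta. Versican binds hyaluronan and fills the loose, hydrated matrix of growing or injured tissue. Fibronectin forms the first fibrous scaffold of a wound, and fibrillin builds the microfibrils on which elastin is laid down. Matricellular proteins such as thrombospondins and periostin add little strength to the matrix and act on cell adhesion, growth factors and collagen crosslinking instead. In liver, most of these genes are best known from stellate cells and portal fibroblasts, while hepatocytes secrete plasma fibronectin in large amounts.

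The RefSeq promoter table on build GRCm38.p6 held windows for 6 of the 10 genes, and 2 windows for Postn, so 7 in all. Lum, Dcn, Fn1 and Thbs1 are named only. The 250 bases before each annotated start were searched on both strands for 6 motifs, and the same was done for all 32851 windows of this length in the table. The TATA box motif TATAAA was held by 12.4% of all windows and by 3 of the 7 member windows (Postn, Ogn and Thbs2). The Thbs2 match was the reverse complement, 126 bases before the start. For the CCAAT box the shares were 33.8% and 2 of 7 (Vcan and Thbs2), and for the SP1 box GGGCGG 32.7% and 3 of 7 (Bgn, Fbn1 and Vcan). The TEAD motif GGAATG occurred in 12.6% of all windows and the RUNX motif TGTGGT in 14% of them, each in 1 member window, that of Ogn. The AP-1 motif TGANTCA occurred in 6.75% of all windows. TGANTCA was found in 0 of the 7 member windows. The 3 windows printed here contrast a gene that rose on the diet with a GC-rich upstream region (Bgn), one that rose with a TATAAA close to its start (Postn, the second of its windows), and one that was not called on the diet (Ogn). Capitals mark the motif matches on either strand, and each sequence runs 5′ to 3′ on the gene's own strand. The Bgn window is chrX:73483351-73483600 (plus strand), that of Postn chr3:54360857-54361106 (plus strand) and that of Ogn chr13:49607765-49608014 (plus strand).
Bgn: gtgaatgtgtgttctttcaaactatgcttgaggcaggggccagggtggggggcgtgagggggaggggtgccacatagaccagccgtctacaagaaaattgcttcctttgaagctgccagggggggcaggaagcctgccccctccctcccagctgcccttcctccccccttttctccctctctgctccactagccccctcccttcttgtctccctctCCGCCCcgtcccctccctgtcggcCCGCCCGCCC
Postn: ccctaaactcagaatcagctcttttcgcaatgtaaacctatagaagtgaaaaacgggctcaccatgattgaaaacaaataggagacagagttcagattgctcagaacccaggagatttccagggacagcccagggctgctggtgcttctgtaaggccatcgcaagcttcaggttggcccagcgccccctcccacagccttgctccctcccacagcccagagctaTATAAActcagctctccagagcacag
Ogn: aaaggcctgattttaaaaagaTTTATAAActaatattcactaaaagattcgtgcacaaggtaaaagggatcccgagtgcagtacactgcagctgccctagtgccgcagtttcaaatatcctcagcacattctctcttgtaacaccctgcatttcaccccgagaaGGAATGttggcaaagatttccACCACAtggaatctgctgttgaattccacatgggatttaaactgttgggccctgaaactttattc
The Bgn window held 3 matches to GGGCGG, at 34, 10 and 6 bases before the start and all on the opposite strand, and its GC content was 64.4% against a median of 52.4% over all windows. In the Postn window TATAAA began 26 bases before the start, and the other Postn window held no match to any of the 6 motifs. The Ogn window held TATAAA 227 bases and its reverse complement 229 bases before the start, in overlapping positions, with GGAATG at 86 and the reverse complement of TGTGGT at 65 bases before the start. Each match is a description of the letters in the window.

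Total estimated counts lay between 19.7 and 29.9 M (mega counts) per library. Levels are given in counts per M counts (CPM), and those of Mtarc1, the targeted gene, were 305 ± 40.2 CPM (SD, n = 5) in WT chow and 235 ± 40.7 (n = 6) in wildtype livers on CDAHFD. Heterozygous livers had 161 ± 33.7 (n = 7), and homozygous livers had 48.7 ± 10.4 CPM (n = 8). The 5 hepatocyte markers found (Alb, Apoa1, Ttr, Hnf4a, Cps1) summed to between 54448 and 111467 CPM in every library, so the tissue label held. Library names are numbers in 2 series, of 9 and 17 libraries, which the labels do not call batches. The shorter series holds 1, 3, 3 and 2 libraries of the 4 groups in the order above. Wildtype CDAHFD samples 2 and 3, both of the shorter series, stood apart: sample 3 was the highest of its group for 5 of the 10 genes and sample 2 for 4. Homozygous sample 4 was the highest of its group for 4 genes, Vcan, Fbn1, Thbs1 and Thbs2. Several results are given with and without these 3 libraries. These libraries stand out by high values of the same genes, so leaving them out lowers their group for the genes in which they were highest. The direction of such changes was set by that choice, and the fits without them are no independent check.

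Compared per length of exon, the 10 genes differed widely in level, with the gene of a plasma protein first and that of a large proteoglycan last. In WT chow Fn1 led with 71.2 ± 19.8 CPM per kb (SD, n = 5), followed by Dcn at 28.7 ± 4.29 and Bgn at 13.8 ± 0.986. Lum stood at 2.76 ± 0.811, Postn at 1.44 ± 0.326 and Ogn at 1.08 ± 0.410 CPM per kb. Thbs1 was at 0.405 ± 0.188, Thbs2 at 0.375 ± 0.121, Fbn1 at 0.264 ± 0.0401 and Vcan at 0.0403 ± 0.0222 CPM per kb. Neighbours whose ranges over chow libraries overlapped were Lum and Postn, Postn and Ogn, Thbs1 and Thbs2, and Thbs2 and Fbn1. In wildtype CDAHFD livers Dcn and Bgn overlapped (27.4 to 40.6 against 18.3 to 34.2 CPM per kb), while Lum no longer overlapped Postn (4.54 to 13.3 against 1.89 to 2.95). Ogn was the sixth in the chow order and the eighth in wildtype CDAHFD, where its range overlapped those of both its neighbours, Thbs2 and Fbn1. Fn1 was the first and Vcan the last in all 4 groups, each clear of its neighbour.

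**Figure D1:**
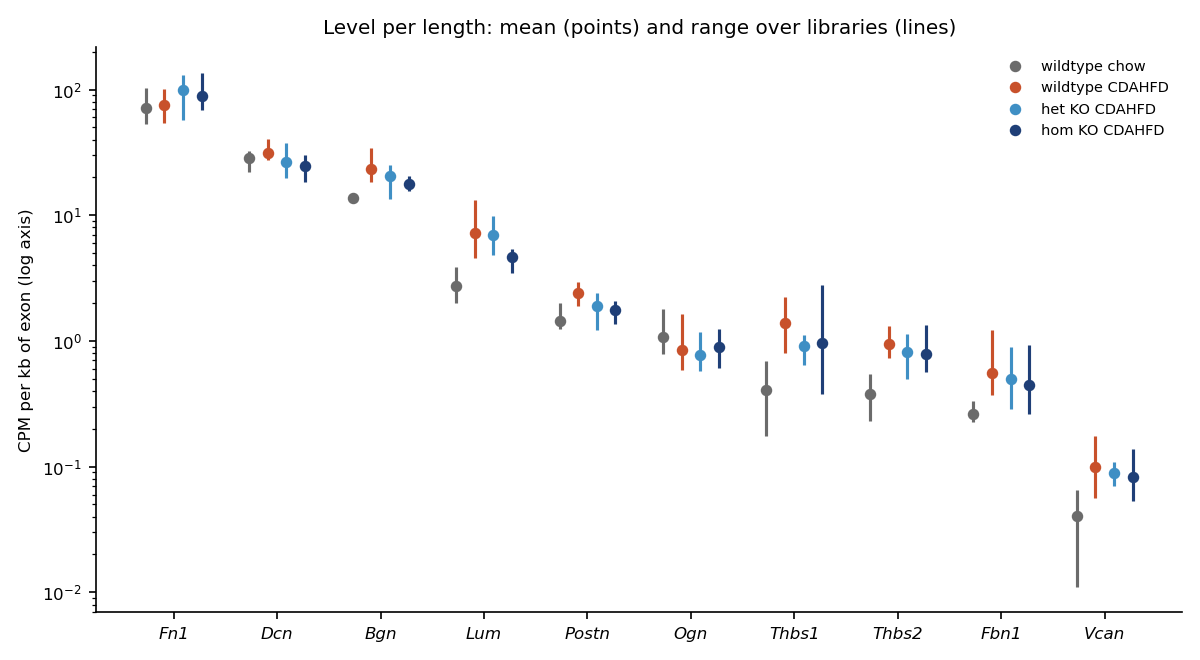
Level per length of the 10 genes in the 4 groups, in CPM per kb of exon on a log axis; points are group means and lines run from the lowest to the highest library. Fn1 is first and Vcan last in each group, and Lum moves from 2.76 CPM per kb in WT chow to 7.19 in wildtype CDAHFD.

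On the diet, 7 of the 10 genes rose in wildtype liver and 0 fell. The risers were Lum, Bgn, Vcan, Fbn1, Thbs1, Thbs2 and Postn, with fitted folds from 1.68 (Postn) to 3.41 (Thbs1), and Dcn, Ogn and Fn1 were not called. edgeR's quasi-likelihood test with Benjamini-Hochberg adjustment over all genes called 27.1% of the genes tested in this comparison, 14.8% higher and 12.2% lower. The median log2 fold change of the 10 genes was 0.92, beside -0.01 over all genes tested. The 10 genes were chosen with earlier results of these data known, so the comparison with all genes is no independent test. For 5 of the 10 (Lum, Bgn, Fbn1, Thbs1 and Thbs2) every wildtype CDAHFD sample lay above every WT chow sample, which was so for 7.95% of all genes tested, with 5.93% wholly below. In a bulk sample, more cells of a type and more RNA per cell cannot be told apart, and this holds for each difference that follows. Within the 17-library series the test called 3 of the 10 (Lum, Bgn and Thbs2), and within the 9-library series, with 1 chow library, it called Thbs1 and Thbs2. In those fits 7.66% and 1.63% of all genes tested were called higher, against 14.8% with all libraries. All 7 risers had a log2 fold change above 0 in both series, but they were picked in a fit over these same libraries, so this is no separate test. Without wildtype CDAHFD samples 2 and 3, Lum (0.998), Bgn (0.553), Thbs2 (1.13), Postn (0.647) and Thbs1 (1.30, edgeR adjusted p = 0.0420) stayed called. Vcan and Fbn1 did not pass in that fit.

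Among mice on CDAHFD, 0 of the 10 genes passed the test for either knockout genotype. In homozygous against wildtype CDAHFD livers 8 of the 10 lay below 0, beside 48.4% of all genes tested. The median log2 fold change of the 10 was -0.33 beside 0.01 over all genes, and 0.00585% of all genes were called, namely Mtarc1 alone. Unadjusted p-values under 0.05 were found for 4 of the 10 (Lum, Bgn, Postn and Dcn), beside 9.97% of all genes tested. DESeq2 and limma voom called 0 of the 10 too. In heterozygous livers 9 of the 10 lay below 0 with a median of -0.17, beside 51.3% and -0.01 over all genes tested, and 0.00% of all genes were called. Unadjusted edgeR p-values under 0.05 there belonged to Postn and Fn1, beside 8.44% of all genes tested, and DESeq2 and limma voom called 0 of the 10. Without wildtype CDAHFD samples 2 and 3, the heterozygous estimates of Lum, Bgn, Ogn, Vcan and Fbn1 were above 0. The 2 knockout groups differed in 0 of the 10 (0.00585% of all genes called, again Mtarc1), with 1 unadjusted edgeR p under 0.05 (Lum), beside 7.13% of all genes tested. For all 10 genes the groups overlapped in each of these 3 comparisons. Over all genes tested, 0.0468% lay wholly above and 0.0935% wholly below for homozygous against wildtype, 0.0702% and 0.0234% for heterozygous against wildtype, and 0.0117% and 0.0409% for homozygous against heterozygous livers.

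**Figure D2:**
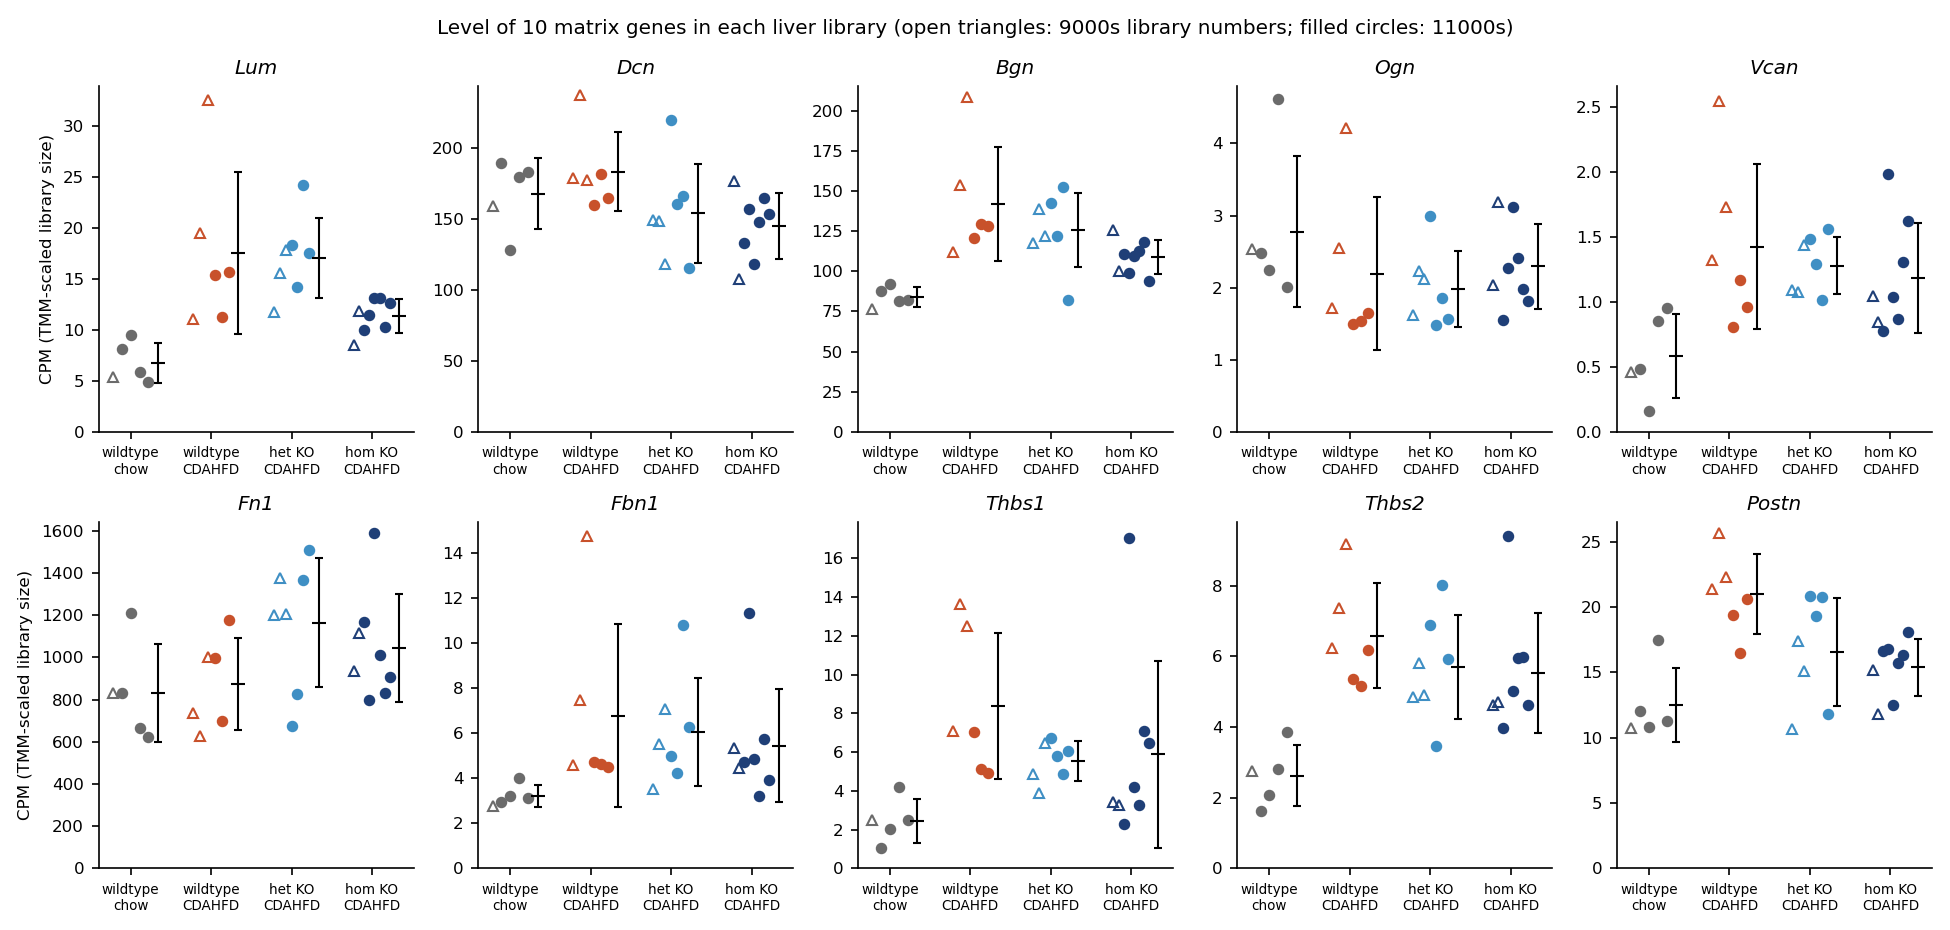
Level of each of the 10 genes in every library, in CPM on TMM-scaled library sizes, by group; open triangles are the 9-library series, filled circles the 17-library series, and the bars beside the points give the mean and SD of the group. For Lum, Bgn, Fbn1, Thbs1 and Thbs2 all 6 wildtype CDAHFD samples lie above all 5 WT chow samples, while Dcn, Ogn and Fn1 overlap.

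Lum, whose product lumican spaces collagen fibrils, had the lowest adjusted p of the 10 on the diet. The 5 WT chow samples were at 5.34, 8.14, 9.51, 5.83 and 4.91 CPM. The lowest, median and highest samples were at 11.1, 15.5 and 32.6 CPM in wildtype CDAHFD, 11.8, 17.6 and 24.2 in heterozygous and 8.52, 11.7 and 13.2 in homozygous livers. All wildtype and heterozygous samples on the diet were thus above all chow samples, as were 7 of the 8 homozygous samples, and 8 of 8 homozygous samples lay below both the wildtype CDAHFD mean and the heterozygous mean. The diet difference in wildtype was 1.39 ± 0.23 (log2, SE) with an edgeR adjusted p of 8.61e-05, which is 2.61-fold. In homozygous against wildtype CDAHFD the estimate was -0.63 ± 0.20, with an unadjusted edgeR p of 0.0037 and an adjusted p of 0.268. Against heterozygous livers it was -0.58 ± 0.19 (edgeR adjusted p = 0.464), and heterozygous against wildtype CDAHFD gave -0.04 ± 0.20. Without wildtype CDAHFD samples 2 and 3, at 19.5 and 32.6 CPM, the homozygous estimate was -0.23 ± 0.17.

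Dcn, the gene of decorin and the most abundant of the small leucine-rich proteoglycan genes here, did not pass the test on the diet. The WT chow livers had 159, 189.6, 128, 179 and 183 CPM. On the diet the lowest, median and highest samples were at 160.1, 178 and 237 CPM in wildtype, 116, 149 and 219.9 in heterozygous and 108, 150.5 and 177 in homozygous livers. The groups overlapped throughout, and the one wildtype CDAHFD sample above all chow samples was sample 2. The diet estimate was 0.13 ± 0.15 (log2, SE; 95% interval -0.17 to 0.42) with an edgeR adjusted p of 0.568. With the mitochondrial share of counts as a covariate it was 0.38 and passed (edgeR adjusted p = 0.0209). That share was 13.1% ± 2.97 (SD, n = 5) in WT chow and 10.1% ± 2.33 (n = 6) in wildtype CDAHFD livers, and its part in the Dcn value was not tested further. In homozygous livers Dcn was at 79.1% of the wildtype CDAHFD mean, with all 8 samples below that mean and an estimate of -0.34 ± 0.13 (edgeR adjusted p = 0.364). The heterozygous estimate was -0.25 ± 0.14 (adjusted p = 0.569), with 4 of 7 samples below all wildtype CDAHFD samples.

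Bgn encodes biglycan, a close relative of decorin with an additional sugar chain, and rose on the diet. WT chow samples were within a narrow band, at 76.4, 87.4, 92.1, 81.6 and 82.1 CPM. The lowest, median and highest samples on CDAHFD were 112, 129 and 209 CPM in wildtype, 82.3, 122 and 153 in heterozygous and 94.2, 110.0 and 126 in homozygous livers. No wildtype or homozygous sample on the diet overlapped the chow group, and 6 of 7 heterozygous samples were above it. edgeR gave a diet difference of 0.76 ± 0.14 (log2, SE) in wildtype with an adjusted p of 0.000222. Homozygous livers were -0.39 ± 0.12 from wildtype CDAHFD (edgeR adjusted p = 0.274) and heterozygous livers -0.18 ± 0.13 (adjusted p = 0.597). With wildtype samples 2 and 3 left out, the homozygous estimate was -0.17 ± 0.11.

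Ogn, the gene of osteoglycin, a small proteoglycan first found in bone, was not called on the diet and rested on 34 to 119 counts per library. In WT chow the samples had 2.53, 2.48, 2.24, 4.62 and 2.01 CPM. The lowest, median and highest CDAHFD samples were at 1.502, 1.68 and 4.21 CPM in wildtype, 1.48, 1.86 and 3.00 in heterozygous and 1.55, 2.15 and 3.19 in homozygous livers. In wildtype, 4 of 6 CDAHFD samples were below all chow samples, and samples 2 and 3 were not among them. The diet estimate was -0.34 ± 0.27 (edgeR adjusted p = 0.380), and without samples 2 and 3 Ogn was called lower, at -0.79 (edgeR adjusted p = 0.0313). Ogn lies within an intron of Cenpp in the GENCODE annotation, and no source here says if reads were counted by strand. Some of its counts may therefore come from unspliced Cenpp RNA, which was not tested.

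The levels of Lum and Bgn were also set against that of Dcn within each library. In CPM not scaled to length, the ratio of Lum to Dcn was 4.21% ± 1.90 (SD, n = 5) for WT chow and 9.70% ± 4.51 (n = 6) for wildtype livers on CDAHFD. It was 11.5% ± 3.36 (n = 7) for heterozygous and 8.15% ± 2.19 (n = 8) for homozygous livers. For Bgn to Dcn the ratios were 51.3% ± 11.7, 78.3% ± 20.2, 82.8% ± 13.8 and 76.5% ± 12.04. These ratios are given with no test, and the ranges of wildtype chow and wildtype CDAHFD samples overlapped for both (2.69% to 7.44% against 6.22% to 18.4% for Lum, and 44.9% to 72.1% against 62.6% to 118% for Bgn). Dcn and Lum are neighbours on the chromosome, with Kera, another small leucine-rich proteoglycan gene of that cluster, beside them, and Kera was listed at 0 in all 26 libraries.

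Vcan encodes versican and was the scarcest of the 10 genes, with 3 to 18 counts per WT chow library and 17 to 77 on the diet, so its values carry more counting error than the others. The samples on chow had 0.460, 0.487, 0.160, 0.854 and 0.951 CPM. On CDAHFD the lowest, median and highest samples were at 0.809, 1.25 and 2.54 CPM in wildtype, 1.01, 1.29 and 1.56 in heterozygous and 0.775, 1.04 and 1.98 in homozygous livers. All 7 heterozygous samples, 5 of 6 wildtype and 5 of 8 homozygous samples on the diet were above all chow samples. The wildtype diet difference was 1.29 ± 0.34 (log2, SE; edgeR adjusted p = 0.00543) and fell below the threshold without samples 2 and 3, at 0.87 (edgeR adjusted p = 0.0780). Knockout against wildtype CDAHFD gave -0.16 ± 0.28 for heterozygous and -0.27 ± 0.27 for homozygous livers, neither of them called. The Vcan locus overlaps the annotated genes Gm4117 and Gm16318, so its counts may be shared with them.

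Fn1, the gene of fibronectin, was by far the most abundant of the 10 and did not pass the test between wildtype chow and wildtype CDAHFD. Its WT chow samples were at 830.5, 831, 1209, 666 and 622 CPM. The lowest, median and highest samples on CDAHFD were at 629, 866 and 1178 CPM in wildtype, 674, 1204 and 1511 in heterozygous and 796, 973 and 1589.6 in homozygous livers. Wildtype samples on the 2 diets covered nearly the same range, and 5 of 7 heterozygous samples were above all wildtype CDAHFD samples. The diet estimate in wildtype was 0.07 ± 0.21 (log2, SE; 95% interval -0.35 to 0.49; edgeR adjusted p = 0.835). Heterozygous against wildtype CDAHFD gave 0.42 ± 0.20, with an unadjusted edgeR p of 0.0428 and an adjusted p of 0.569, and homozygous against wildtype CDAHFD 0.26 ± 0.19 (adjusted p = 0.714). With the mitochondrial share as a covariate the diet estimate changed sign and passed, at -0.40 (edgeR adjusted p = 0.00589), while the mean mitochondrial share was 13.1% in WT chow and 10.1% in wildtype CDAHFD libraries. The 5 hepatocyte markers, from the cell type best known for plasma fibronectin, summed to 102281 ± 9866 CPM (SD, n = 5) in WT chow and 71429 ± 11897 (n = 6) in wildtype CDAHFD.

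Fbn1, which encodes fibrillin 1, rose on the diet in wildtype liver, and 1 sample carried much of that rise. Chow livers had 2.76, 2.92, 3.21, 4.02 and 3.12 CPM. On CDAHFD the lowest, median and highest samples were at 4.49, 4.68 and 14.8 CPM in wildtype, 3.502, 5.54 and 10.8 in heterozygous and 3.21, 4.80 and 11.3 in homozygous livers. Every wildtype CDAHFD sample was above every chow sample, but 4 of the 6 lay between 4.49 and 4.74 CPM, and the highest was sample 3. edgeR put the diet difference at 1.08 ± 0.34 (log2, SE) with an adjusted p of 0.0172. Without sample 3 it was 0.70 (edgeR adjusted p = 0.0872), and without samples 2 and 3 it was 0.53 (adjusted p = 0.236). The homozygous estimate against wildtype CDAHFD was -0.31 ± 0.28 with all libraries and 0.25 ± 0.27 without wildtype samples 2 and 3.

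Thbs1, an adhesive glycoprotein gene whose product can activate latent transforming growth factor beta, had the largest estimated rise of the 10. On chow the 5 samples had 2.49, 1.07, 2.03, 4.22 and 2.48 CPM. The lowest, median and highest samples on CDAHFD were at 4.90, 7.06 and 13.6 CPM in wildtype, 3.88, 5.82 and 6.74 in heterozygous and 2.28, 3.82 and 17.05 in homozygous livers. Wildtype CDAHFD samples did not overlap the chow group, whereas 5 of 8 homozygous samples were not above the highest chow sample. The estimate in wildtype was 1.77 ± 0.43 (log2, SE; edgeR adjusted p = 0.00315). Homozygous sample 4, at 17.05 CPM, was the highest of all 26 libraries. Homozygous against WT chow gave 1.26 ± 0.41 (edgeR adjusted p = 0.0276) with that sample and 0.81 (adjusted p = 0.0707) without it. Among mice on CDAHFD, all 7 heterozygous and 7 of 8 homozygous samples were below the wildtype mean, and the estimates were -0.60 ± 0.36 (edgeR adjusted p = 0.572) and -0.51 ± 0.35 (adjusted p = 0.690). Leaving out homozygous sample 4 took the difference between homozygous and heterozygous livers from 0.09 to -0.36.

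Thbs2, the gene of thrombospondin 2, a regulator of collagen fibril shape and vessel growth, rose in all 3 CDAHFD groups against chow. WT chow samples were at 2.76, 1.61, 2.08, 2.81 and 3.86 CPM. On CDAHFD the lowest, median and highest samples were at 5.16, 6.21 and 9.16 CPM in wildtype, 3.47, 5.81 and 8.01 in heterozygous and 3.97, 4.85 and 9.39 in homozygous livers. All wildtype and all homozygous samples on the diet were above all chow samples, with 6 of 7 heterozygous samples. Against WT chow, edgeR gave 1.33 ± 0.24 (log2, SE; adjusted p = 0.000146) for wildtype, 1.12 ± 0.23 (adjusted p = 0.000579) for heterozygous and 1.08 ± 0.23 (adjusted p = 0.0012) for homozygous livers. The difference between homozygous and wildtype CDAHFD livers was -0.25 ± 0.20 (95% interval -0.64 to 0.14; adjusted p = 0.740).

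Postn encodes periostin, which promotes collagen crosslinking in healing tissue. WT chow samples were at 10.8, 12.03, 10.8, 17.5 and 11.3 CPM. On CDAHFD the lowest, median and highest samples were at 16.5, 20.99 and 25.7 CPM in wildtype, 10.6, 17.4 and 20.8 in heterozygous and 11.8, 16.01 and 18.1 in homozygous livers. In wildtype, 5 of 6 CDAHFD samples were above all chow samples, the exception lying under chow sample 4 only, and all 7 heterozygous and all 8 homozygous samples were below the wildtype CDAHFD mean. The wildtype diet difference was 0.75 ± 0.17 (log2, SE; edgeR adjusted p = 0.00125). Against wildtype CDAHFD the heterozygous estimate was -0.34 ± 0.15, with an unadjusted edgeR p of 0.0291 and an adjusted p of 0.569. For homozygous livers it was -0.45 ± 0.14, with an unadjusted edgeR p of 0.00418 and an adjusted p of 0.275. Postn shares its locus with the annotated gene Gm31095, so some of its counts may belong there.

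Against WT chow, 7 of the 10 genes were called higher in heterozygous CDAHFD livers and 5 in homozygous CDAHFD livers, with 0 lower in either. The background was 37.2% of all genes called (19.3% higher) for heterozygous and 23.1% (12.3% higher) for homozygous livers. In heterozygous livers Lum (1.34 ± 0.23, log2, SE), Bgn (0.58 ± 0.14), Vcan (1.13 ± 0.33), Fbn1 (0.92 ± 0.33), Thbs1 (1.17 ± 0.42), Thbs2 and Postn (0.41 ± 0.16, edgeR adjusted p = 0.0464) were called. Fn1 stood at 0.49 ± 0.21 there and missed the threshold in edgeR (adjusted p = 0.0654), while DESeq2 gave an adjusted p of 0.0474. In homozygous livers Lum (0.76 ± 0.22, log2, SE), Bgn (0.37 ± 0.13), Vcan (1.02 ± 0.33), Thbs1 and Thbs2 were called, and Fbn1 (0.77 ± 0.32, edgeR adjusted p = 0.0817) and Postn (0.30 ± 0.16, adjusted p = 0.168) were not. Every heterozygous sample was above every chow sample for Lum and Vcan, which held for 7.58% of all genes tested (6.10% wholly below). For homozygous livers that was so for Bgn and Thbs2, and for 4.61% of all genes (3.16% wholly below). The 3 sets of differences share the chow samples and are given side by side with no test between them. These counts hung on single libraries: the heterozygous count was 4 without WT chow sample 1, 2 or 5, and the homozygous count was 2 without any one of those and 3 without WT chow sample 3 or homozygous sample 4. Of all genes tested, 14.6% to 17.6% were called higher in those heterozygous fits and 9.02% to 13.5% in those homozygous fits. In the 17-library series the homozygous count was 3, beside 9.67% of all genes called higher. In the 9-library series, with its single chow library, both counts were 0, beside 0.0889% of all genes for heterozygous and 0.0167% for homozygous livers.

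**Figure D3:**
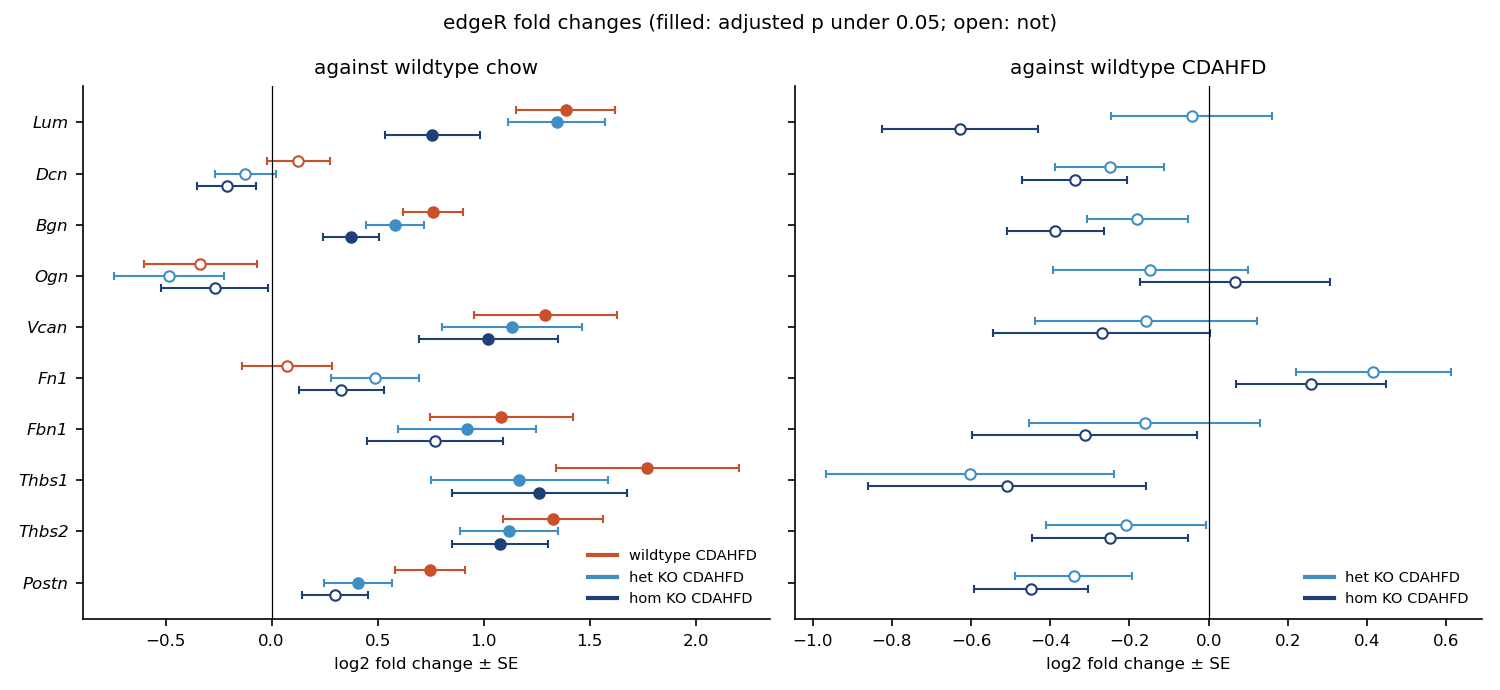
edgeR log2 fold change ± SE of the 10 genes against WT chow (left) and against wildtype CDAHFD (right), coloured by group; filled points have an adjusted p under 0.05. On the left 7, 7 and 5 genes are filled for wildtype, heterozygous and homozygous livers, and on the right none is.

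The genotype estimates took different values in the 2 library series, but no difference between the series passed a test. Wildtype CDAHFD samples 2 and 3 are both in the 9-library series, which holds 3 wildtype CDAHFD and 2 homozygous libraries. In homozygous against wildtype CDAHFD, 9 of the 10 genes lay below 0 in the 9-library series and 4 (Lum, Dcn, Bgn and Postn) in the 17-library series. For Lum the estimate was -1.04 ± 0.40 (log2, SE) in the former and -0.25 ± 0.19 in the latter. Thbs1 gave -1.72 ± 0.32 and 0.26 ± 0.48, and Vcan -0.99 ± 0.37 and 0.38 ± 0.38. A test of the difference between series called 0 of the 10 genes, and 0.00% of the 16730 genes in that edgeR fit. The lowest unadjusted edgeR p-values among the 10 there were 0.0105 for Vcan (-1.35 ± 0.48) and 0.0139 for Thbs1 (-1.97 ± 0.73), each with an adjusted p of 0.944. Over all genes in that fit, 4.96% had an unadjusted p under 0.05. Without wildtype samples 2 and 3 the difference between series changed sign for Lum (0.132), Bgn (0.247) and Ogn (0.119). Fn1 alone was above 0 in both series and also without wildtype samples 2 and 3, at 0.21 ± 0.21. Leaving out those 2 samples put Vcan (0.16 ± 0.29) and Fbn1 above 0 and Thbs1 (-0.03 ± 0.39) and Thbs2 (-0.05 ± 0.22) near it, while Lum, Dcn, Bgn and Postn stayed below 0. No gene of the 10 was called in homozygous against wildtype livers in any of these fits.

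**Figure D4:**
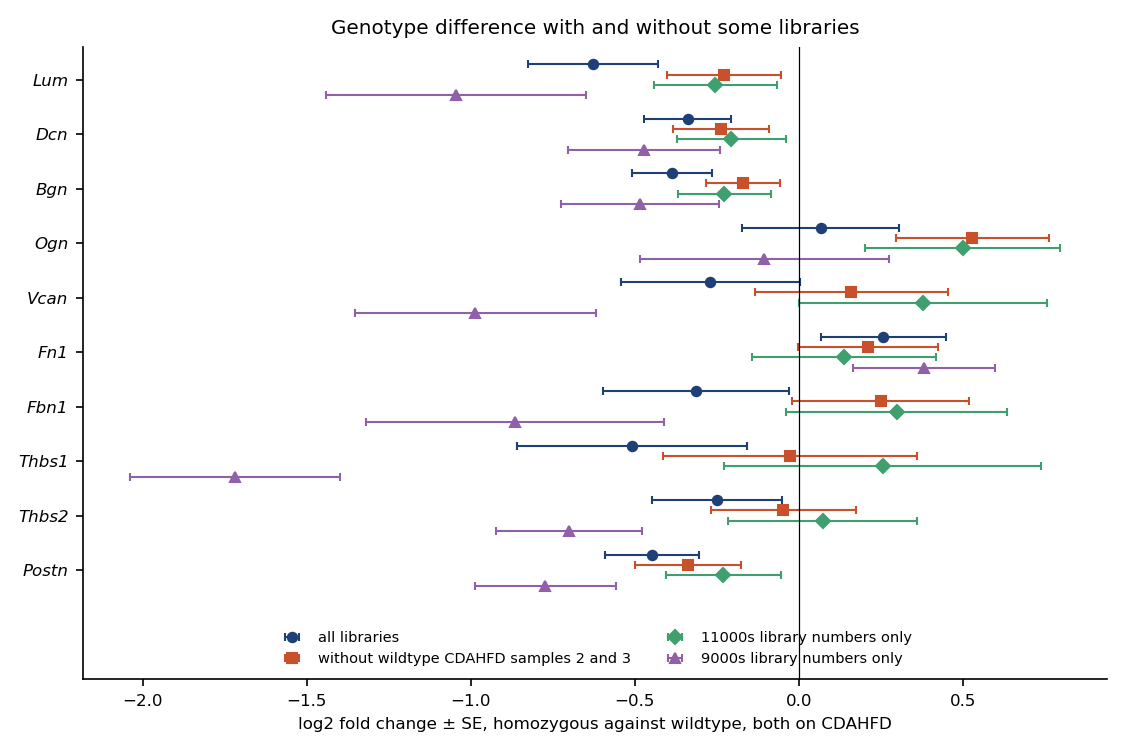
Log2 fold change ± SE of homozygous against wildtype livers, both on CDAHFD, for the 10 genes in 4 fits: all libraries (circles), all but wildtype CDAHFD samples 2 and 3 (squares), the 17-library series alone (diamonds) and the 9-library series alone (triangles). Lum runs from -1.04 in the 9-library series to -0.23 without the 2 wildtype samples, and Vcan, Fbn1, Thbs1 and Thbs2 lie on both sides of 0.

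Fitted as a slope per Mtarc1 copy lost over the 21 CDAHFD libraries, 0 of the 10 genes passed, beside 0.00598% of the 16730 genes (Mtarc1 itself). The slopes ran from -0.32 ± 0.11 (log2 per copy, SE) for Lum to 0.12 ± 0.10 for Fn1. Unadjusted edgeR p-values under 0.05 were found for Lum (0.00524), Dcn (0.0213), Bgn (0.00767) and Postn (0.00484), with adjusted p-values from 0.298 to 0.410. Over all genes tested, 9.72% had an unadjusted p under 0.05. Only Ogn (0.04 ± 0.12) and Fn1 had slopes above 0 among the 10, while 46.6% of all genes tested had slopes below 0.

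Genes related to the 10 were followed in lists chosen by function, with earlier results of these data known. Their counts in wildtype CDAHFD against chow are to be read beside the 14.8% of all genes called higher and 12.2% called lower. Of 14 tested elastic fibre and microfibril genes, 10 were higher and 0 lower in wildtype CDAHFD (median log2 fold change 0.84). The lowest p-values among them belonged to Efemp2, a fibulin needed for elastic fibre assembly (0.97 ± 0.17, SE), Emilin1, a microfibril-associated glycoprotein (0.67 ± 0.14), and Eln, the elastin gene (1.65 ± 0.33). Of 17 tested matricellular and other matrix glycoprotein genes 11 were higher and 2 lower (median 0.71), led by Tgfbi (1.10 ± 0.14), Sparc, a collagen-binding glycoprotein gene (1.17 ± 0.17), and Matn2 (1.38 ± 0.23). The other small leucine-rich proteoglycan genes were mostly scarce: of 12, 7 were tested and only Omd was called (1.26 ± 0.44, at 0.551 ± 0.229 CPM in wildtype CDAHFD, SD, n = 6). Omd was not called without WT chow sample 2, 4 or 5 or without wildtype CDAHFD sample 2, 3 or 4. Without wildtype CDAHFD samples 2 and 3 together the elastic fibre count was 4, beside 10.8% of all genes called higher in that fit. Within the 17-library series it was 2, with 6 for the matricellular list, beside 7.66% of all genes called higher.

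In the same comparison, in which 27.1% of all genes were called in either direction, 3 of 11 tested genes of the hyaluronan system and other lecticans were higher and 2 lower (median 0.22). Cd44, the main hyaluronan receptor, rose by 1.46 ± 0.24 (log2, SE), Tnfaip6, which modifies hyaluronan, by 2.22 ± 0.56, and the link protein gene Hapln4 by 0.51 ± 0.18. Of 5 tested versican-cleaving proteases Adamts1 alone was called (0.76 ± 0.20). Among 22 enzymes that build chondroitin and dermatan sulfate chains, 7 were higher and 1 lower (median 0.34), and the lowest p-values were those of Chpf, a chondroitin polymerising factor (1.11 ± 0.19), Chst14, a dermatan sulfotransferase (0.79 ± 0.16), and Dse, an epimerase that forms dermatan sulfate (0.70 ± 0.15). Of 15 cell surface and intracellular proteoglycan genes 4 were higher and 1 lower (median -0.02), among them the glypican gene Gpc1 (2.38 ± 0.30), serglycin, Srgn (1.16 ± 0.18), and the syndecan gene Sdc3 (0.61 ± 0.15). Of 12 tested receptors of fibronectin, thrombospondin and periostin 7 were higher and 1 lower (median 0.44), led by Cd36, a thrombospondin and fatty acid receptor (1.74 ± 0.24), Plaur (2.65 ± 0.39) and the integrin gene Itgb5 (0.59 ± 0.13). The receptor count in both directions was 4 without WT chow sample 5 or wildtype CDAHFD sample 3 and 5 without WT chow sample 1 or 4. That of the hyaluronan system was 2 without WT chow sample 5 or wildtype CDAHFD sample 3 or 6, and 3 without WT chow sample 2 or 4 or wildtype CDAHFD sample 5. The protease count was 2 without wildtype CDAHFD sample 6.

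In homozygous against wildtype CDAHFD livers edgeR called 0 genes of each of these 8 related lists. Of all genes tested 48.4% were below 0 there and 9.97% had an unadjusted edgeR p under 0.05, and the median log2 difference was 0.01. Of the 14 elastic fibre genes 14 were below 0 (median -0.39) and 6 had an unadjusted p under 0.05, and of the 17 matricellular genes 16 (median -0.36) and 8. For the 12 receptors the numbers were 11 (median -0.18) and 3, for the 7 other small leucine-rich proteoglycans 6 (median -0.31) and 0, and for the 5 proteases 4 (median -0.32) and 1. Of the 11 genes of the hyaluronan system 6 were below 0 (median -0.07) and 2 had an unadjusted p under 0.05, of the 15 surface proteoglycans 9 (median -0.05) and 2, and of the 22 chain-building enzymes 12 (median -0.08) and 5. The estimates were lower in the 9-library series, which holds wildtype CDAHFD samples 2 and 3, for 13 of the 14 elastic fibre genes and higher for 1. The median series difference was -0.72. For the 17 matricellular genes it was lower for 13 and higher for 4 (median -0.50), beside 50.2% lower over all genes in that fit. edgeR called 0 genes for the series difference.

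Marker lists of the cell types a liver sample could hold were summed in each library. The 5 smooth muscle and myofibroblast markers (Acta2, Tagln, Myh11, Cnn1, Myl9) summed to 11.9 to 16.8 CPM in WT chow, 26.96 to 82.6 in wildtype CDAHFD, 21.7 to 44.6 in heterozygous and 18.4 to 30.3 in homozygous livers. Their highest sums were those of wildtype CDAHFD samples 2 (82.6 CPM) and 3 (72.7 CPM). The 8 hepatic stellate cell markers summed to between 109.5 and 126 CPM in WT chow, 118 and 183 in wildtype CDAHFD, 110.2 and 206 in heterozygous and 92.7 and 134 in homozygous livers. The 7 portal fibroblast markers summed to between 67.6 and 78.0, 92.9 and 121, 77.6 and 138, and 76.0 and 129 CPM in the same order. For the 9 macrophage markers the ranges were 224 to 378, 449.8 to 723, 389 to 612 and 333 to 517 CPM. Homozygous sample 4, highest of its group for Vcan, Fbn1, Thbs1 and Thbs2, had the lowest sums of its group for the stellate (92.7 CPM), macrophage (333 CPM), hepatocyte (62057.5 CPM), endothelium (80.6 CPM) and pancreas (5.99 CPM) lists. In wildtype on the diet, where 14.8% of all genes were called higher and 12.2% lower, edgeR called 3 of 4 tested smooth muscle, 4 of 6 portal fibroblast and 8 of 9 macrophage markers higher and 0 of them lower. It called 1 of 8 stellate markers and 1 of 3 platelet markers higher, 3 of 5 hepatocyte markers lower, and 0 of 5 mesothelium, 7 endothelium, 4 bile duct and 1 pancreas markers in either direction. In homozygous against wildtype CDAHFD livers 0 markers were called in any list. There 4 of 4 smooth muscle markers were below 0 (median log2 difference -0.82, 4 with an unadjusted edgeR p under 0.05), as were 8 of 8 stellate (median -0.33, 5 with p under 0.05), 9 of 9 macrophage (median -0.37, 5 with p under 0.05) and 7 of 7 endothelium markers (median -0.21, 0 with p under 0.05). The 5 hepatocyte markers were all above 0 (median 0.14). Portal fibroblast markers were mixed, with 4 below and 2 above 0 (median -0.17, 2 with an unadjusted edgeR p under 0.05). So were mesothelium markers, with 3 below and 2 above 0 (median -0.004), and bile duct markers, with 1 below and 3 above 0 (median 0.09). All 3 tested platelet markers were below 0 (median -0.54), and the 1 pancreas marker was above 0 (0.45). Over all genes tested 48.4% were below 0. The part of these cell types in the differences of the 10 genes was not tested.

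For each of the 10 genes the tested genes with the most similar course over the 26 libraries were taken, by the root mean square difference of log2 CPM centred on each gene's mean. The closest was Emilin1 for Bgn, at 0.119 against a spread of Bgn itself of 0.330, with Pdgfrb, a receptor gene of stellate cells, next at 0.136. Lum was closest to Laptm5 (0.255), a lysosomal protein gene of blood cells, Nid1 (0.263) and Loxl2 (0.263), against its own spread of 0.616. Dcn was closest to Rbms3 (0.143), Sept4 (0.144) and Des (0.155), with a spread of 0.270. For Fn1 they were Zdhhc9 (0.122), Timm29 (0.132) and Cpn2 (0.132), with a spread of 0.390, none of them a matrix gene. Postn was closest to the collagen gene Col5a1 (0.209), Fbn1 to Adamts4 (0.320) and another collagen gene, Col5a2 (0.325), and Thbs1 to the matricellular gene Tnc (0.299). The nearest to Vcan, Ogn and Thbs2 were Nod2 (0.333), Purg (0.318) and Pak1 (0.293), against their own spreads of 0.670, 0.423 and 0.584. Among the 10 genes themselves the closest pair was Bgn and Postn (0.271) and the farthest Fn1 and Thbs1 (0.990). All of these distances share the same libraries and diet groups, so they describe this set of livers.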

How the data were processed

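Liver RNA was measured by RNA sequencing in 26 samples. Per the submitters' processing notes, reads were trimmed with cutadapt 3.5 and quantified with Salmon 1.4.0 on GRCm39 (mm39). The authors deposited 1 table of estimated counts per Ensembl gene, not normalized, in which 54.4% of values above 0 are whole within 0.0005. The annotation release and the use of strand are not given in the sources used here. Symbols came from the GENCODE M21 annotation of GRCm38 by gene ID, which named 51475 of 55642 IDs (92.5%), and exon lengths came from the same annotation, so levels per kb mix releases.

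Estimated counts were rounded to whole numbers, filtered with edgeR's filterByExpr (17104 genes) and scaled by TMM. edgeR 4.0.16 (R 4.3.3) quasi-likelihood tests were fitted over all 4 groups at once, with Benjamini-Hochberg adjustment over all genes and a threshold of 0.05. The slope per Mtarc1 copy lost and the difference between library number series were fitted on the 21 CDAHFD libraries (16730 genes). Errors of log2 fold changes are standard errors, and intervals are at 95%. CPM use TMM-scaled library sizes. Python 3.11.15 with pandas 2.3.3 and numpy 2.4.6 made the summaries. The edgeR fit over the 4 groups was tested on simulated counts, for the wildtype diet comparison and for homozygous against wildtype CDAHFD. The other fits were not tested in this way. All 74 pairs of same-group libraries differed by more than sampling noise, with a chi-square per degree of freedom of 15.4 or more.

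The members and lists were chosen with earlier results of these data known. Named genes are the 10 members in every comparison, Mtarc1, the 3 called genes of lowest p per related list in the diet comparison, and the 3 nearest genes by root mean square difference. Alternatives were DESeq2 1.42.0 and its size factors in edgeR, limma 3.58.1 voom, no low-count filter, the mitochondrial share or the library number series as a covariate, each series alone, the replicate block, only the groups compared, each library left out, and wildtype CDAHFD samples 2 and 3 left out. Leaving out homozygous sample 4 together with those was added after seeing the data.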

Additional observations from a re-analysis of the deposited data

Results flagged for a closer look

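In 8 of the 40 sets of 1 gene in 1 group, the highest sample stood far from the rest by a gap test on the group's range. For normally distributed values, chance alone passes that test in about 1 of 20 sets. It was run on CPM without a log transform, at both ends of each group, and marked no lowest sample. The rate of 1 in 20 may therefore not hold here. In wildtype CDAHFD, Dcn was at 237 CPM in sample 2 (next highest 181) and Fbn1 at 14.8 CPM in sample 3 (next 7.46). In WT chow, sample 4 stood apart for Ogn at 4.62 CPM (next 2.53) and for Postn at 17.5 CPM (next 12.03). Homozygous sample 4 was apart for Fbn1 at 11.3 CPM (next 5.73), Thbs1 at 17 CPM (next 7.08) and Thbs2 at 9.39 CPM (next 5.98). Homozygous sample 5 was apart for Fn1 at 1590 CPM (next 1165). The samples so marked come from 5 libraries, and genes share libraries, so the 8 are not independent.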

How the results depend on the processing

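Across settings other than leaving out 1 library, 786 member results kept direction and side of the threshold, 42 lost the call, 6 gained one and 56 changed sign; with 1 library left out the numbers were 1065, 37, 4 and 24. In the values that follow, all of them log2 differences, the cause was not tested. Counts of the 10 genes called against WT chow moved from 7 to 3 (17-library series) and 2 (9-library series) in wildtype, from 7 to 0 (9-library series) in heterozygous, and from 5 to 3 (mitochondrial share as covariate), 3 (17-library series) and 0 (9-library series) in homozygous livers. Leaving out 1 library gave 4 to 7 for heterozygous and 2 to 5 for homozygous livers. The 9-library series holds 1 chow library, so its fits have few samples.

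Limma voom turned Lum in heterozygous against wildtype CDAHFD to 0.0244 and Thbs1 in homozygous against heterozygous to -0.172. With the mitochondrial share as covariate Fn1 was -0.40 for wildtype, -0.312 for heterozygous and -0.266 for homozygous CDAHFD against chow, 0.0461 for homozygous against heterozygous and -0.0721 for the series difference. Under that covariate Dcn was 0.281 for heterozygous and 0.0986 for homozygous against chow, Vcan 0.192 for heterozygous against wildtype CDAHFD and Thbs1 -0.147 for homozygous against heterozygous.

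In the 17-library series alone Dcn was -0.00873 on the diet. Heterozygous against wildtype CDAHFD there gave Fbn1 0.518, Lum 0.404, Ogn 0.348, Thbs1 0.0543, Thbs2 0.134 and Vcan 0.456. Homozygous against wildtype CDAHFD gave Fbn1 0.298, Thbs1 0.256, Thbs2 0.0731 and Vcan 0.378, and the slopes per copy were Fbn1 0.0966, Thbs1 0.131, Thbs2 0.0209 and Vcan 0.15. In the 9-library series alone Ogn was 0.161 and Fn1 -0.0751 on the diet. Ogn was also -0.106 for homozygous against wildtype CDAHFD, 0.0552 for homozygous against chow and -0.0867 as a slope, and homozygous against heterozygous gave Dcn 0.0346 and Thbs1 -0.596.

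Without wildtype CDAHFD samples 2 and 3, heterozygous against wildtype gave Bgn 0.0309, Fbn1 0.395, Lum 0.35, Ogn 0.309 and Vcan 0.264, homozygous against wildtype Fbn1 0.249 and Vcan 0.16, the slopes Fbn1 0.0862, Thbs1 0.00363 and Vcan 0.0548, and the series difference Bgn 0.247, Lum 0.132 and Ogn 0.119. With homozygous sample 4 left out too, the values were Bgn 0.0306, Fbn1 0.395, Lum 0.35, Ogn 0.309 and Vcan 0.264 for heterozygous, Fbn1 0.00121 and Vcan 0.00666 for homozygous against wildtype, and Thbs1 -0.364 for homozygous against heterozygous.

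With 1 library left out, sign changed in these ranges: Fn1 on the diet, -0.0338 to 0.245. Heterozygous against wildtype CDAHFD ranged over -0.362 to 0.227 for Fbn1, -0.153 to 0.227 for Lum, -0.287 to 0.147 for Ogn and -0.277 to 0.0793 for Vcan. Homozygous against wildtype CDAHFD ranged over -0.564 to 0.0748 for Fbn1 and -0.0211 to 0.362 for Ogn. Homozygous against heterozygous ranged over -0.147 to 0.0267 for Dcn, -0.393 to 0.0488 for Fbn1, -0.364 to 0.213 for Thbs1 and -0.190 to 0.0601 for Thbs2. The slope ranged over -0.283 to 0.0261 for Fbn1 and -0.00141 to 0.188 for Ogn, and the series difference over -0.449 to 0.0204 for Bgn and -0.658 to 0.0603 for Dcn.

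The replicate numbers were not taken as a pairing, since not every same-numbered pair was correlated over 0.1: same-numbered libraries of different groups deviated together with a median correlation of 0.068 over 34 pairs, 16 of them over 0.1, against -0.004 over 217 other pairs, 55 of them over 0.1. With the replicate block the counts called were 7, 5 and 4 for wildtype, heterozygous and homozygous CDAHFD against chow and 0 for each genotype comparison and the slope, Lum in heterozygous against wildtype CDAHFD was 0.0103 and Thbs1 in homozygous against heterozygous -0.138. Depth limits Vcan most, with 3 to 18 counts per chow library.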
